A study of Sus scrofa with 6 samples.

Results

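Circular RNAs (circRNAs) whose back-splice junction joins genomic positions more than 50 kb apart were described in brain tissue of wild boar and domestic pig. The members were chosen by coordinates alone, as the circRNAs for which end minus start exceeded 50000 bases, and 1444 of the 11375 circRNAs in the deposited table met this rule. The remaining 9931 are called the other circRNAs. Both groups are females of 2 years: 3 wild boar libraries labelled brain, and 3 libraries of the Rongchang pig, a domestic breed from China, labelled cerebrum. The domestic pig libraries are marked as a re-analysis of an earlier deposit, and the series title places the tissue in the prefrontal cortex. Breed, tissue label and source project therefore separate the same 3 libraries from the same 3 others and cannot be told apart. All libraries were made from rRNA-depleted total RNA with a stranded protocol. The labels number the libraries but do not state that each came from its own animal, so p-values measure the spread between these libraries.

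A circRNA forms when the spliceosome joins a downstream splice donor to an upstream acceptor, which closes the exons between them into a loop. Introns are normally spliced out of the loop, so the distance between the ends on the genome can be far larger than the RNA itself. Brain is known for abundant circRNAs, many from long genes with synaptic and signalling functions, and long introns carrying inverted repeats are known to favour back-splicing.

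The files hold TPM, a level scaled by circRNA length, from which whole back-splice reads were recovered for every circRNA. The libraries held 33644 to 73089 recovered circRNA reads, of which 3784 to 8629 belonged to members, and 1 read of a member of median length was worth 0.019 to 0.0376 TPM. Markers of neurons, astrocytes, oligodendrocytes and microglia were above 0 in every library. The summed TPM of 2 red blood cell markers was 519 to 756 in wild boar against 123 to 309.8 in domestic pig, and that of 3 microglia markers was 12.5 to 21.9 against 22.7 to 31.2. Neither sum overlapped between the groups. Of the microglia markers P2RY12 alone did not overlap, with 5.11 to 7.34 TPM in wild boar against 13.5 to 16.0 in domestic pig. CX3CR1 and CSF1R overlapped. ALB, a liver gene, was at 70.7 TPM in 1 wild boar library, where no library of domestic pig was above 15.2.

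Members were detected nearly as often as the other circRNAs but had lower TPM. Wild boar 1 to 3 contained 923, 1086 and 877 members above 0, or 63.9%, 75.2% and 60.7% of them. Domestic pig 1 to 3 contained 1172, 1026 and 1193, or 81.2%, 71.1% and 82.6%. The lowest domestic pig library therefore lay below the highest wild boar library. Within each library the share of members detected minus the share of other circRNAs detected was -1.62, -1.59 and -2.14 percentage points in wild boar 1 to 3, against -0.97, -1.59 and 0.28 in domestic pig 1 to 3. The mean difference was -1.27 points, lower in 5 of 6 libraries (exact two-sided sign-flip permutation test over 6 libraries, p = 0.0625, adjusted p = 0.125 over 4 exact tests). Against only the other circRNAs of the same host genes the mean difference was -4.60 points, with an unadjusted p of 0.03125 in the same exact test.

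The median TPM of members was 0.0323, 0.0317 and 0.0354 in wild boar 1 to 3 against 0.0535, 0.0512 and 0.0735 in domestic pig 1 to 3. For the other circRNAs it was 0.0591, 0.0619 and 0.0616 in wild boar against 0.0960, 0.0885 and 0.120 in domestic pig. Members were thus below the other circRNAs in all 6 libraries. The log2 ratio of the medians averaged -0.83 (range -0.97 to -0.71), a level 0.563 times that of the other circRNAs. The exact two-sided sign-flip permutation test gave p = 0.03125, the smallest that 6 libraries allow, and 0.125 after adjustment over 4 tests. In recovered reads, the log2 ratio of the medians was 0.00, but these medians are whole numbers from 1 to 3 and resolve small differences poorly. The log2 ratio of mean reads was -0.24 (range -0.36 to -0.12, p = 0.03125 in the same exact permutation test, unadjusted). Members also had a longer spliced sequence, by which TPM divides, with a median of 812.5 nucleotides against 511. Within bins of spliced length the log2 ratio of median TPM was -0.15 up to 400 nucleotides, -0.04 from 400 to 600 and 0.05 from 600 to 800. It was -0.05 from 800 to 1200 and -0.34 from 1200 to 10000. The log2 ratio of mean reads in the same bins was -0.32, 0.01, -0.16, -0.19 and -0.03. Lengths were not matched within a bin, and the last bin is the widest.

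**Figure D1:**
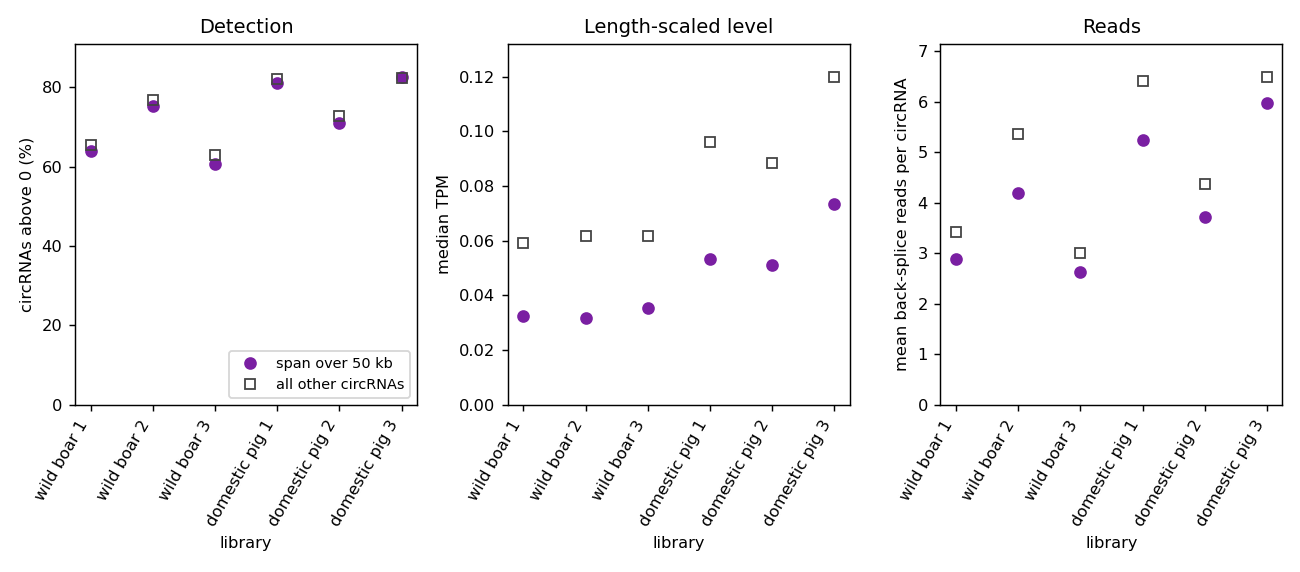
Members (filled circles) and all other circRNAs (open squares) in each of the 6 libraries: share above 0 in percent, median TPM, and mean recovered back-splice reads per circRNA. The shares of circRNAs detected lie within 2.14 percentage points of each other, whereas the median TPM of members is the lower one in all 6 libraries.

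Level and length changed along the span and not only at 50 kb. The median spliced length was 331.5 nucleotides in circRNAs spanning up to 1 kb, 751 between 40 and 50 kb, 810 between 50 and 60 kb and 792 between 150 and 200 kb. Over the same bins the median of the mean TPM went from 0.130 through 0.0610 and 0.0590 to 0.0544. The median number of reads summed over the 6 libraries was between 11 and 12 in every bin up to 75 kb, then 10.5 up to 100 kb and 9 in both bins above. Detection per library averaged 74.2% ± 9.48 (SD over 6 libraries) from 50 to 60 kb and 66.9% ± 10.8 from 150 to 200 kb. Members over 100 kb were detected 4.38 percentage points less than all circRNAs of shorter span (exact two-sided sign-flip permutation test, unadjusted p = 0.03125). The longest span in the whole table was 199692 bases, and the sources used here do not state whether a limit was set on span.

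**Figure D2:**
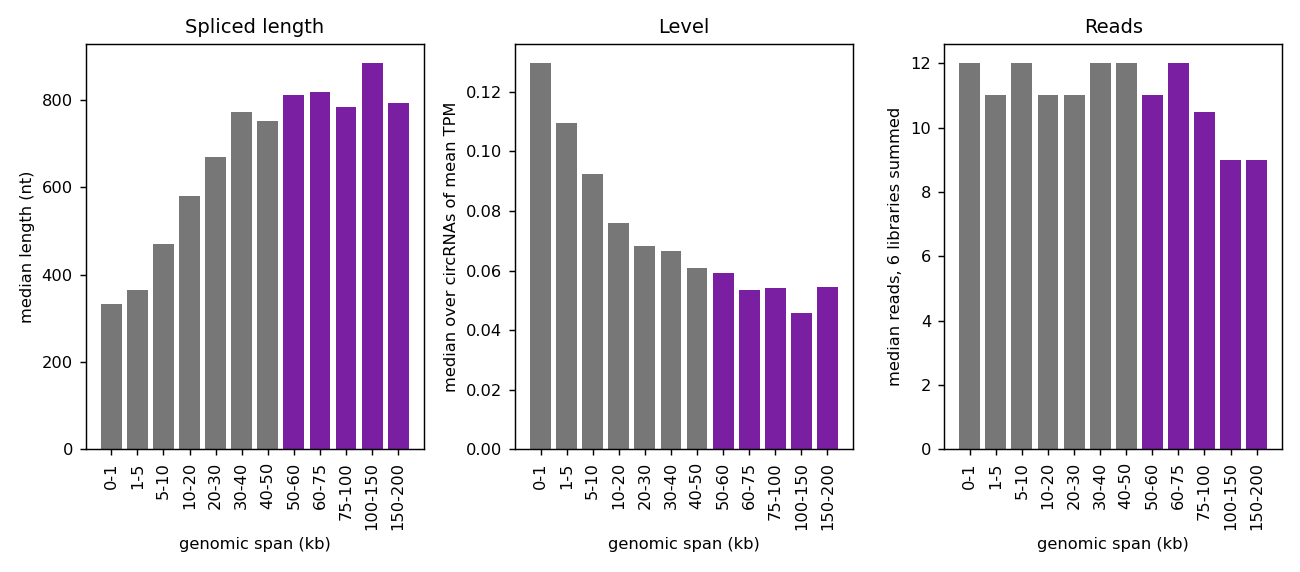
Median spliced length, median of mean TPM, and median reads summed over 6 libraries for circRNAs in bins of genomic span; purple bars are members. TPM declines from 0.130 in the shortest bin to 0.0610 just below 50 kb, while reads stay between 11 and 12 up to 75 kb.

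The 3 members closest to the 50 kb threshold came from KIAA2026, CHD2 and OSBPL1A, with spans of 50048, 50087 and 50190 bases and mean TPM of 0.120, 0.01004 and 0.0495. The 3 circRNAs just outside came from DGKB, USP25 and TRIP4, with spans of 49988, 49962 and 49933 bases and mean TPM of 0.0544, 0.0624 and 0.0215.

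The members spanned a median of 74033 bases (middle 80% from 53163 to 133289), against 11534 for the other circRNAs. The spliced sequence was a median of 1.08% of that distance, against 5.28% for the other circRNAs, and 28.2% of the host gene lay between the ends, against 9.33%. In 213 members (14.9%) the ends enclosed more than 50% of the host, against 255 (2.58%) of the other circRNAs. Loops whose spliced length equals their span numbered 276 in the table. None could be a member, as no spliced length in the table exceeded 8669 nucleotides. Span chose the members and enters each of these shares, so the contrasts follow in part from the rule.

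Members shared splice ends with further circRNAs more often than the rest of the table. The acceptor was used by at least 1 further circRNA in 74.3% of members and 46.8% of the other circRNAs, and the donor in 62.05% and 39.8%. Both ends were shared by 48.1% and 19.8%, and neither end by 11.7% and 33.2%. Among the other circRNAs of the same host genes, both ends were shared by 34.0% and neither by 13.01%. These shares count circRNAs of 1 annotation of the same genes, which are not independent, and carry no test.

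The host of a circRNA is the gene that encloses it. RefSeq gene positions enclosed 98.89% of members, against 28.46% after a shift of 1000000 bases. The members fell into 610 host genes, of which 321 had 1 member, 133 had 2 and 156 had at least 3. Protein-coding genes held 1421 members, long noncoding RNA genes held 7, and 16 lay inside no annotated gene. Of the hosts, 558 also gave shorter circRNAs, and there members were 31.9% of the circRNAs. A member was the most abundant circRNA by TPM in 96 of these 558 hosts (17.2%) and by reads in 132 (23.7%).

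Members came from all 18 autosomes, as did the other circRNAs, and the deposited table held no circRNA of a sex chromosome. They were 18.5% of the circRNAs on chromosome 10 (85 of 459) and 17.5% on chromosome 18 (60 of 343), and 6.22% on chromosome 12 (26 of 418) and 8.62% on chromosome 17 (25 of 290), with 12.7% over the whole table. The 13 hosts with at least 10 members held 189 of them. ATRNL1, which encodes the membrane protein attractin-like 1, had 27 members among its 37 circRNAs. Other hosts with many members were NBEA, a scaffold of neuronal membrane trafficking, with 20 of 39, CADPS2, a priming factor of dense-core vesicles, with 16 of 29, STAU2, which transports dendritic RNA, with 16 of 24, and UBR3, a ubiquitin ligase, with 15 of 39.

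A high number of members did not go with a high level. In UBR3 the 15 members held 3.17% of the gene's circRNA TPM, and the most abundant one, ssc_circ_5023 (chr15:76248140-76337917), had a mean TPM of 0.0383. In NBEA they held 31.6%, led by ssc_circ_2930 (chr11:11156485-11209651) at 0.954. In STAU2 they held 55.0%.

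The STAU2 members show how a few splice ends combine. STAU2 reads on the plus strand of chromosome 4, and its 16 members used 5 acceptors and 7 donors. The acceptor at position 62178830 was joined to 6 donors, giving members that spanned 64952 to 137695 bases, and the acceptor at position 62146811 was joined to 4 donors. Members of 1 acceptor differed in level: ssc_circ_8514 (chr4:62146811-62283092) had a mean TPM of 0.6995 from 212 reads, and ssc_circ_8515 (chr4:62146811-62339533) had 0.0171 from 8. The length behind the TPM was 765 nucleotides for 3 members of the first acceptor that end at different donors, ssc_circ_8521, ssc_circ_8522 and ssc_circ_8523.

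The libraries of domestic pig differed widely at the first of these acceptors. Its 6 members summed to 1.82, 0.898 and 1.08 TPM in wild boar 1 to 3 against 2.76, 0.454 and 1.22 in domestic pig 1 to 3. The 4 members of the other acceptor summed to 0.721, 0.543 and 0.843 TPM in wild boar against 1.01, 0.838 and 1.60 in domestic pig. The groups overlapped in both sums, and domestic pig 2 was the lowest of its group in each. The STAU2 gene itself had 40.0 ± 14.9 TPM in wild boar against 57.8 ± 13.7 in domestic pig (SD, n = 3 each), a log2 difference of -0.56 ± 0.42 (SE) with a limma adjusted p of 0.454.

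**Figure D3:**
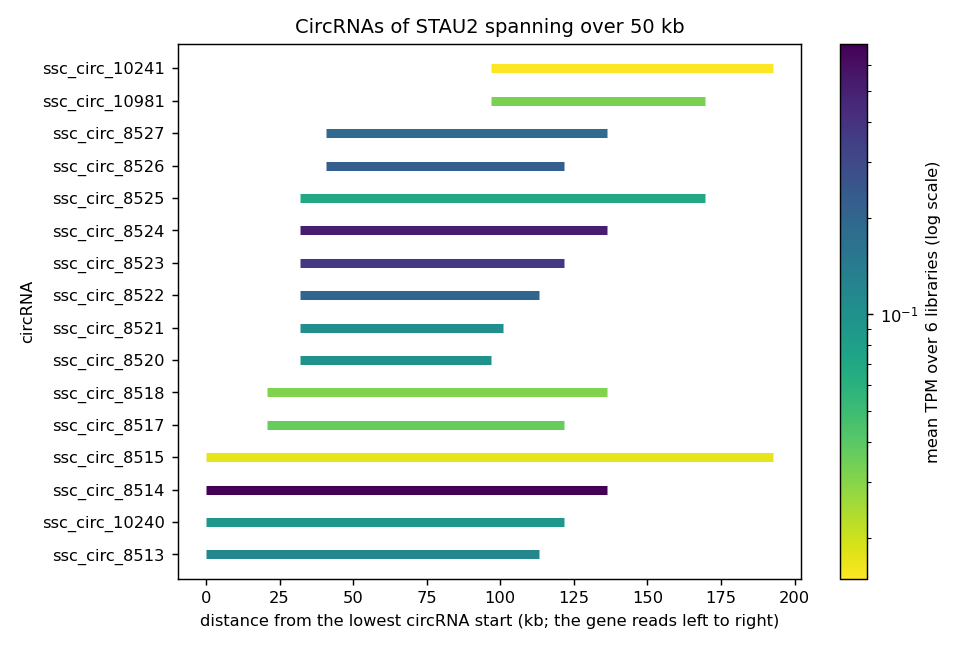
The 16 members of STAU2, each a bar from its lower to its upper end, in kb from the lowest start; colour gives mean TPM over 6 libraries on a log scale. The darkest bars are ssc_circ_8514 and ssc_circ_8524 (0.6995 and 0.520 TPM), which share a donor, and ssc_circ_8523 (0.374 TPM).

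No member was among the 50 circRNAs of highest mean TPM, 3 were among the top 100 and 12 among the top 200, although 12.7% of all circRNAs are members. Ranked by reads, 22 of the top 200 were members, and 118 of the top 1000 (11.8%). The 12 members of highest mean TPM held 14.1% of the members' summed TPM, and all 12 were above 0 in every library. In 6 of the 12 the wild boar and domestic pig values did not overlap, with 4 lower and 2 higher in wild boar, where the groups did not overlap in 20.6% of all tested circRNAs (2002). Of the 1227 members tested, 251 (20.5%) did not overlap, and 234 of these were lower in wild boar. Among the 251, 39 were at 0 in all wild boar libraries and above 0 in all domestic pig libraries, and 2 the reverse. Such members pass the filter through 1 group alone and could not overlap. The summed TPM of all circRNAs was likewise lower in wild boar (1994 to 2121) than in domestic pig (2879.5 to 3367). Directions over all tested circRNAs are not given here.

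The most abundant member came from QKI, an RNA-binding protein of glia that is itself known to promote circRNA formation. This circRNA, ssc_circ_668 (chr1:4775755-4843415), has 404 spliced nucleotides and had 3.63, 2.44 and 3.85 TPM in wild boar 1 to 3 against 4.46, 3.44 and 5.43 in domestic pig 1 to 3, which overlap. It rested on 408 reads and ranked 56 in the whole table. The second, ssc_circ_6473 (chr18:17859078-17947161), lies in the long noncoding RNA gene LOC106506781. It had 4.60, 3.29 and 3.98 TPM in wild boar against 2.94, 3.56 and 3.46 in domestic pig, which overlap, from 401 reads. The third, ssc_circ_2749 (chr2:133845441-133922606), comes from RAPGEF6, an exchange factor for the small GTPase Rap, and is described with the comparison of the groups.

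Regulators of transcription gave 3 of the next circRNAs. MED13L, a subunit of the Mediator kinase module, gave ssc_circ_5440 (chr14:36101382-36243162), with 1.98, 1.26 and 2.37 TPM in wild boar against 3.32, 3.78 and 2.84 in domestic pig. NPAS3, a neuronal transcription factor, gave ssc_circ_2136 (chr7:66377311-66530404), with 1.77, 1.38 and 1.53 TPM in wild boar against 2.35, 2.06 and 2.61 in domestic pig. Neither circRNA overlapped between the groups. ARID1B, a subunit of the BAF chromatin remodeller, gave ssc_circ_684 (chr1:10070672-10175846), with 0.982, 1.59 and 0.803 TPM against 2.38, 1.52 and 2.53, which overlap.

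ERC2, a scaffold protein of the presynaptic active zone, gave a circRNA of nearly equal level in the 3 wild boar libraries. The circRNA ssc_circ_3732 (chr13:37769965-37836335) had 2.35, 2.39 and 2.36 TPM in wild boar against 1.63, 1.17 and 1.83 in domestic pig, and the groups did not overlap. ATRNL1 gave ssc_circ_5836 (chr14:125707566-125789786), with 1.89, 1.70 and 2.71 TPM in wild boar against 1.68, 1.71 and 5.23 in domestic pig. Domestic pig 3 alone lay far above the other libraries, with 105 of the 304 reads. The remaining 4 came from DENND1A, an exchange factor for a Rab GTPase, ATP9B, a phospholipid flippase, LOC106506781 again, and SLC4A4, a sodium bicarbonate cotransporter, with mean TPM from 1.70 to 1.82.

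**Figure D4:**
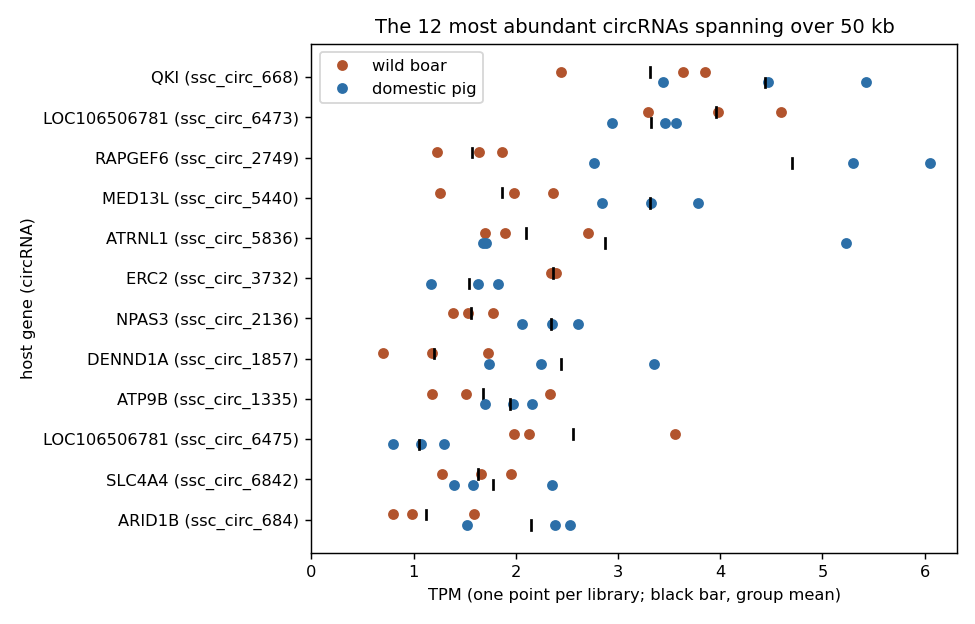
TPM of the 12 most abundant members in the 3 wild boar and 3 domestic pig libraries, 1 point per library, with black bars at the group means. The groups do not overlap for RAPGEF6, MED13L, NPAS3, ERC2 and DENND1A and for LOC106506781 (ssc_circ_6475).

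The 8 members of longest span, from 195578 to 199692 bases, had mean TPM of 0.0149 to 0.584. ZFPM2, a cofactor of GATA factors, held the longest, ssc_circ_8408 (chr4:31772558-31972249), with 333 spliced nucleotides, 21 reads and a mean TPM of 0.243. DPP10, an auxiliary subunit of potassium channels, held the most abundant of the 8, ssc_circ_4817 (chr15:21504032-21699664), at 0.584 TPM from 57 reads. The others came from FER, ATRNL1, TNFSF4, CTNNA2 and 2 regions without an annotated gene, with 0.0149 to 0.152 TPM. The most abundant of the 16 members in no annotated gene was ssc_circ_6013 (chr17:27855900-27988069), with 0.906 TPM and 75 reads.

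Host genes were grouped into 9 lists of brain functions, 8 of which are described. Members were 18.99% of the circRNAs of all listed genes (548 of 2886), against 12.7% of the whole table. The share was 38.3% for presynaptic release and active zone genes (80 of 209) and 27.3% for cell adhesion and synapse organisation (67 of 245). It was 22.0% for kinases and phosphatases, 19.2% for chromatin and transcription regulators, 18.8% for ion channels and neurotransmitter receptors and 17.9% for the cytoskeleton. RNA-binding genes were at 12.4% and ubiquitin and protein turnover genes at 8.76%. The presynaptic list holds ERC2 and NBEA, and NBEA gives 20 of its 80 members. A host must be longer than the span of its member. The median host length was 255662 bases for hosts of members against 89929 for hosts of the other circRNAs. The part of gene length in the shares of the lists was not tested.

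Beyond the 12 members of highest mean TPM, DYRK1A, a kinase, led its list with ssc_circ_4387 at 1.38 TPM, and STK39, a kinase of ion transport, followed with ssc_circ_4975 at 1.03 TPM. RASGRF2, a Ras exchange factor, gave ssc_circ_2602 at 1.23 TPM, and CEP112, a centrosomal protein, gave ssc_circ_4449 at 0.812 TPM. MIB1, a ubiquitin ligase of Notch signalling, gave ssc_circ_392 at 0.503 TPM.

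The comparison of wild boar with domestic pig asked whether members differed between the breeds. They made up 7.86%, 7.46% and 8.13% of a library's circRNA TPM in wild boar 1 to 3 against 7.59%, 7.80% and 8.42% in domestic pig 1 to 3. The group values of 7.82% ± 0.337 and 7.94% ± 0.434 (SD, n = 3 each) differed by less than their spread (exact two-sided permutation test, p = 0.7, adjusted p = 0.7). With 3 libraries against 3 this test cannot go below 0.1. The shares of members detected, 66.6% ± 7.61 in wild boar against 78.3% ± 6.30 in domestic pig, overlapped (exact permutation test, p = 0.2, adjusted p = 0.267). Drawn down to the reads of the shallowest library, they were 61.3%, 63.1% and 60.7% in wild boar against 65.5%, 63.5% and 67.9% in domestic pig, which did not overlap (exact permutation test, p = 0.1, unadjusted). The other circRNAs, drawn down alike, were at 63.1%, 66.1% and 62.9% in wild boar against 67.5%, 65.2% and 67.8% in domestic pig, which overlap. Recovered circRNA reads were 33644 to 59343 in wild boar against 48822 to 73089 in domestic pig, and the part of depth and of the red blood cell and microglia markers in these differences was not tested. In bulk tissue, fewer cells of a type and less RNA per cell cannot be told apart.

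Most members were found in both groups. They numbered 1271 (88.0%), beside 8744 of the other circRNAs (88.0%), while 41 members were found only in wild boar (2.84%) against 132 only in domestic pig (9.14%). Of the other circRNAs, 3.15% were found only in wild boar and 8.80% only in domestic pig. All 6 libraries contained 454 members (31.4%) and 3522 of the other circRNAs (35.5%). Above 0 in all 3 wild boar libraries and at 0 in all 3 domestic pig libraries were 2 members, 0.139% of them, with 0.299% over the whole table. The reverse held for 39 members, 2.70% of them, with 1.98% over the whole table.

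The 2 members of the first kind were ssc_circ_11045 of LRRC49, a leucine-rich repeat protein, and ssc_circ_11095 of STXBP5L, a tomosyn that restrains vesicle fusion. The LRRC49 circRNA (chr1:168571563-168647449) had 1, 1 and 4 reads in wild boar 1 to 3, and the STXBP5L circRNA (chr13:139264860-139315155) had 3, 2 and 2. Of the 39 members of the other kind, the 4 with the most reads or TPM were from CASC1, RYR2, LRP1B and ERBB4. The CASC1 circRNA ssc_circ_9045 had 5, 2 and 5 reads in domestic pig 1 to 3, and ssc_circ_5212 of ERBB4, a neuregulin receptor, had 3, 3 and 2. A count of 0 allows up to 3 reads in a library, so these circRNAs are near the limit of detection and their absence from a group was not shown.

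Of the members, 1227 were above 0 in at least 3 libraries and were tested. No member changed between the groups by limma on log2(TPM + 0.045) at an adjusted p of 0.05, where 0.134% of all 9709 tested circRNAs did (13). At an unadjusted p under 0.05 there were 125 members, 7 higher and 118 lower in wild boar. They were 10.2% of those tested, against 14.5% of all tested circRNAs (1408), which are not split by direction here. The lower side is not particular to members, as the median log2 fold change of all tested circRNAs was -0.45. The 39 members at 0 in all wild boar libraries and above 0 in all domestic pig libraries could only count as lower. The median log2 fold change of members was -0.39, and that of the other circRNAs tested was -0.46, on a scale that understates changes of low values. Scaling each library by the median ratio over circRNAs moved the median of all tested circRNAs from -0.45 to -0.10. After it members were at -0.10, the other circRNAs at -0.10, and no member passed, with 0.0206% of all tested circRNAs called (2). The unadjusted count of members then became 74, with 23 higher and 51 lower.

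**Figure D5:**
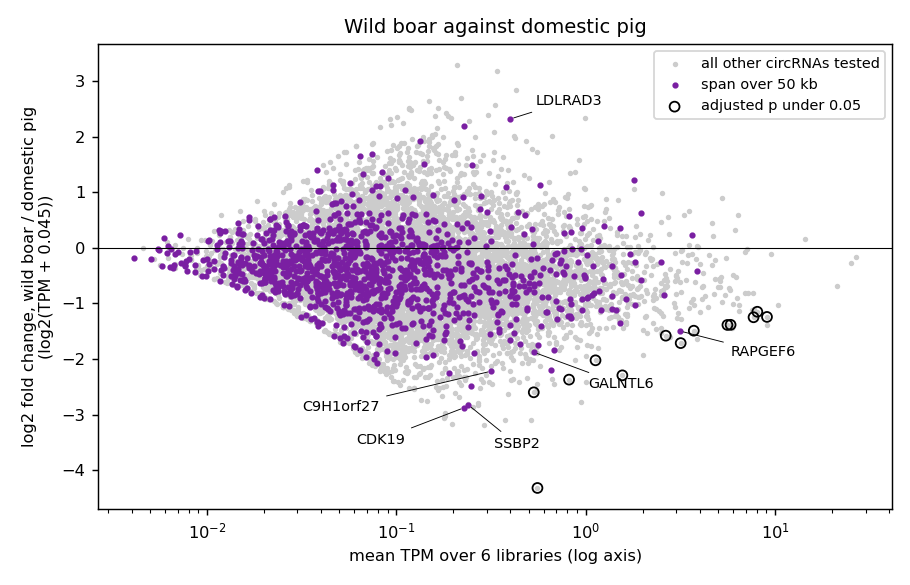
Log2 fold change of wild boar over domestic pig against mean TPM (log axis) for the 9709 tested circRNAs; purple points are the 1227 tested members and black rings mark an adjusted p under 0.05. All 13 ringed circRNAs are other circRNAs, and the median is -0.39 for tested members and -0.46 for the rest.

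The 5 members of lowest p in each direction missed the threshold. RAPGEF6 had the lowest p among them: ssc_circ_2749 had 1.64, 1.23 and 1.86 TPM in wild boar 1 to 3 against 6.05, 5.30 and 2.77 in domestic pig 1 to 3. The groups did not overlap, and the log2 fold change was -1.50 ± 0.33 (SE) with a limma adjusted p of 0.0805. Without domestic pig 3, the lowest of its group, the adjusted p was 0.0151, and over the other libraries left out in turn it was 0.106 to 0.230. After median-ratio scaling it was 0.396. The RAPGEF6 gene had 12.2 ± 3.28 TPM in wild boar against 22.4 ± 5.01 in domestic pig (SD, n = 3 each), with a limma adjusted p of 0.275.

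The next 4 on the lower side came from GALNTL6, C9H1orf27, CDK19 and SSBP2. GALNTL6, of the glycosyltransferase family that starts O-glycans, gave ssc_circ_5352 (chr14:17612974-17731797), with 0.240, 0.149 and 0.221 TPM in wild boar against 0.794, 0.767 and 1.02 in domestic pig, without overlap. The circRNA ssc_circ_8282 (chr9:127566656-127617998) lies in C9H1orf27, overlaps PDC as well, and had 0.168, 0.0522 and 0.0516 TPM against 0.623, 0.489 and 0.519. A pair of circRNAs was at 0 in wild boar 1 and 3: ssc_circ_993 of CDK19, a Mediator kinase, and ssc_circ_2606 of SSBP2, a DNA-binding transcription cofactor. They had 2 reads each in wild boar 2, and 21 and 17 reads in domestic pig. Both met the filter of at least 3 libraries through domestic pig, so their p lends no support to their direction. The limma adjusted p of these 4 was 0.0937 to 0.121.

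Of the members higher in wild boar, LDLRAD3, a receptor of the LDL receptor class, had the lowest p. Its ssc_circ_2376 (chr2:24996467-25058523) had 8, 13 and 15 reads in wild boar 1 to 3 against 2, 2 and 1 in domestic pig 1 to 3, or 0.488, 0.491 and 1.12 TPM against 0.0950, 0.142 and 0.0578. The groups did not overlap, and the log2 fold change was 2.32 ± 0.53 (SE) with a limma adjusted p of 0.101. LOC106506781 followed with ssc_circ_6475 (chr18:17889683-17947161), with 1.98, 2.13 and 3.56 TPM in wild boar against 1.07, 0.799 and 1.30 in domestic pig, without overlap. Its log2 fold change was 1.22 ± 0.34 (SE), with a limma adjusted p of 0.138. TFDP2, a partner of the E2F factors, gave ssc_circ_3917 (chr13:82802690-82884662), with 5, 6 and 5 reads in wild boar against 5, 0 and 0 in domestic pig, which overlap. This circRNA met the filter of at least 3 libraries through wild boar, so its p lends no support to its direction. The remaining 2 were the STXBP5L and LRRC49 circRNAs seen in wild boar alone. They met the filter of at least 3 libraries only through wild boar, so their direction was fixed by the filter and their p lends no support.

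In a limma voom fit to the recovered reads, which scales each library to its own circRNA reads, the LDLRAD3 and LOC106506781 circRNAs rose in wild boar and no other member passed. Their log2 fold changes were 3.11 ± 0.72 and 1.81 ± 0.38 (SE), with adjusted p of 0.0115 and 0.00208, and 0.299% of all tested circRNAs were called (29). Among circRNAs above 0 in all 6 libraries, a set of 3976, limma on TPM called 11 of the 454 members, 2 higher and 9 lower, where 3.87% of that set was called (154). The 2 higher were again the LDLRAD3 and LOC106506781 circRNAs. Among the 9 lower were circRNAs of RAPGEF6, GALNTL6, C9H1orf27, CDK19 (ssc_circ_992), TASP1, EMC2, ATG7 and CCDC18. EMC2, a subunit of the membrane protein insertase of the endoplasmic reticulum, gave ssc_circ_8391 (chr4:29014534-29068902), with 1.21, 0.549 and 0.761 TPM in wild boar against 1.52, 3.02 and 2.04 in domestic pig. TASP1, a protease that cuts the MLL protein, gave ssc_circ_5993 (chr17:22296588-22347295), with 0.0777, 0.432 and 0.380 TPM against 0.664, 0.946 and 1.58.

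Members of 1 gene could differ in sign. The following genes were chosen after their values were seen, and no difference between their members was tested. In LOC106506781, ssc_circ_6475 and ssc_circ_6473 share the upper end, and ssc_circ_6472 (chr18:17859078-17912006) shares the lower end of ssc_circ_6473. The last had 1.18, 1.63 and 1.02 TPM in wild boar against 1.51, 2.34 and 1.58 in domestic pig, so that the log2 fold changes of the 3 were 1.22 ± 0.34, 0.24 ± 0.26 and -0.49 ± 0.34 (SE). In CDK19, ssc_circ_989 (chr1:76620009-76723195) had 0.144, 0.0893 and 0.177 TPM in wild boar against 0.0372, 0 and 0 in domestic pig. Another CDK19 member, ssc_circ_992 (chr1:76649382-76727151), had 0.203, 0.220 and 0.125 TPM against 0.870, 0.472 and 0.818. The limma adjusted p was 0.221 for the first and 0.133 for the second.

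None of the 9 host lists held a member that passed among the 1227 tested by limma on deposited TPM. The unadjusted count was highest for kinases and phosphatases, with 12 of 62 tested members lower and 1 higher, beside the 14.5% of all tested circRNAs. It was 9 lower of 72 for chromatin and transcription regulators and 5 lower and 1 higher of 68 for the presynaptic list. The median log2 fold change of the lists lay between -0.55 for kinases and -0.09 for ion channels, beside -0.45 over all tested circRNAs. A list of genes tied to circRNA formation, such as QKI, also holds genes with other roles, among them DDX39A, DDX39B, RNASEH1 and TNPO1. It gave no call on the deposited scale, where 0 of 29 tested genes passed, beside 1.6% of all tested genes. The median log2 difference was -0.62 for the list and -0.41 for all tested genes. After median-ratio scaling 3 list genes were higher by limma, with RNASEH1 among them, and 4 were lower, with TNPO1 among them. Among all tested genes 11.6% were higher and 7.91% lower. The list median was then -0.06, beside 0.07 for all tested genes.

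Of the 610 hosts, 562 matched the deposited gene table and 556 were tested. On the deposited scale 5 fell in wild boar and none rose (limma, adjusted p under 0.05), or 0.899%, where 1.6% of all tested genes were called (188 of 11752). They were CCDC18, a coiled-coil protein, ANGPT1, the angiopoietin that activates the Tie2 receptor, BAZ2B, a bromodomain protein, UNC13C, a priming factor of synaptic vesicles, and ADAMTS19, a secreted metalloprotease. CCDC18 had 4.64, 3.25 and 5.59 TPM in wild boar 1 to 3 against 14.5, 19.3 and 15.8 in domestic pig 1 to 3, a log2 difference of -1.69 ± 0.41 (SE, limma adjusted p 0.00449). ANGPT1 had 2.21, 1.36 and 3.24 TPM against 7.27, 8.15 and 7.14 (log2 difference -1.42 ± 0.37, limma adjusted p 0.0147). Neither gene overlapped between the groups. The number of hosts called was 0 without wild boar 1, without domestic pig 2 or without domestic pig 3, 2 without wild boar 2, 10 without wild boar 3 and 23 without domestic pig 1. The last 3 counts were 0.360%, 1.81% and 4.14% of the hosts tested, beside 0.912%, 2.35% and 3.67% of all genes tested.

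The medians moved with the scale of the library. The tested hosts had a median log2 difference of -0.64 and all tested genes -0.41. After median-ratio scaling these were -0.11 and 0.07, and 94 hosts were called where 19.5% of all tested genes were (2292). Of these hosts 80 fell, or 14.4%, where 7.91% of all tested genes fell, and 14 rose, or 2.52%, where 11.6% of all tested genes rose. Genes that host only shorter circRNAs gave like values, with 14.8% lower and 4.04% higher of 2451, whereas of 8745 genes matched to no circRNA 5.57% were lower and 14.3% higher. Among the 14 that rose were CRIM1, a membrane protein that binds BMP ligands, DPP6, an auxiliary subunit of potassium channels, and SHANK2, a postsynaptic scaffold. ERBB4, a neuregulin receptor, GRM7, a presynaptic glutamate receptor, and DLG1, a synaptic scaffold, were among the 80 that fell. On the deposited scale none of these named genes passed. CRIM1, DPP6 and SHANK2 had log2 differences of 0.32, 0.04 and -0.04 there (limma adjusted p 0.654 to 0.965). ERBB4, GRM7 and DLG1 had -1.18, -1.11 and -1.13 (limma adjusted p 0.123 to 0.153). The rise of SHANK2 thus appeared only after rescaling.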

How the data were processed

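The authors deposited TPM for circRNAs and for protein-coding genes, 1 column per library, and 0 further columns were unused. BWA 0.7.17 and STAR 2.6.0c appear in the submitters' processing notes without a role each; the circRNA caller and genome build are not given in the sources used here. Positions come from the deposited circRNA table, and 1 was added to each start. Host names come from RefSeq (Sscrofa11.1), none of whose coordinates are printed.

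Each circRNA TPM was reads times a library factor divided by spliced length. All 11375 circRNAs gave whole reads within a relative tolerance of 1e-05, taking the smallest solution with a whole length and at least 3 reads in 1 library. Lengths were calibrated on 276 circRNAs whose length equals their span. For 88 members the solution was raised to meet this rule. Reads are not unique molecules, so limits cover counting error only. Gene TPM keeps no depth.

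Circular RNAs above 0 in at least 3 libraries and genes reaching a TPM of 1 in at least 3 libraries were tested with limma 3.58.1 (R 4.3.3, mean-variance trend) on log2(TPM + 0.045) and log2(TPM + 1), two-sided, with Benjamini-Hochberg adjustment over all features tested and a threshold of 0.05. Library values were compared by exact permutation tests (scipy 1.17.1). Tests were tried first on simulated data. Same-numbered libraries did not deviate together, so no pairing was used.

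Members named are the 12 of highest mean TPM, the 8 of longest span, those called or the 5 of lowest p per direction, up to 4 found in all libraries of 1 group alone, the 3 on each side of 50 kb, those of the 6 hosts with most members, and up to 3 per host list. Others are said to be chosen afterwards. The members and lists were chosen with earlier results of these data known. Alternatives tried were other pseudocounts, filters, scalings, span thresholds, spliced-length bins, a replicate block and each library left out. The voom fit, the length bins and the mean-based ratios were chosen after seeing the data. Some items of these lists and hosts are not reported here.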

Additional observations from a re-analysis of the deposited data

How the results depend on the processing

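The difference in the members' share of circRNA TPM (wild boar minus domestic pig, -0.118 percentage points) had no stable sign: it was 0.0781 with a span threshold of 40 kb, and -0.292 to 0.125 with each library left out, positive without wild boar 2 (0.0604) and without domestic pig 3 (0.125). The detection difference between members and other circRNAs was past 0.05 before adjustment when at least 2 reads were required (-2.21 points), against the same hosts (-4.60) and above 100 kb (-4.38). The log2 ratio of medians was 0.00 in reads, where the medians were whole numbers from 1 to 3 and mean reads were lower in all 6 libraries. By spliced length the log2 ratio of median TPM was -0.0392 from 400 to 600 nucleotides and -0.0458 from 800 to 1200. Neither was below 0.05 in the exact test, and the ratio was reversed, at 0.0508, from 600 to 800. With each library left out the log2 ratio of median TPM over all lengths was -0.853 to -0.802, and 5 libraries cannot give a p below 0.0625 in the exact test.

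The number of members called was 11 among circRNAs above 0 in all libraries, 2 on recovered reads, 1 with a span threshold of 40 kb, and 0 to 1 with each library left out. It was 0 with the other pseudocounts, without a filter, and with both rescalings. Host genes called numbered 94 after rescaling, 0 without a filter, and 0 to 23 with each library left out. With the replicate number as a block, 0 members and 0 host genes were called, and 0 members with rescaling and the block. Same-numbered libraries correlated by -0.000794 to 0.0225 for circRNAs and -0.0408 to 0.0952 for genes, so the numbers were not taken as pairs. Members had a median of 11 reads over the 6 libraries, which limits the precision of their values.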
